A study of Mus musculus with 12 samples.

Results

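The 9 genes described here code for G protein-coupled receptors of small-diameter sensory neurons, and they are 9 of the 15322 genes measured in mouse dorsal root ganglia, which hold the cell bodies of the sensory neurons that supply the body. They are 6 receptors of the Mas-related family (Mrgprd, Mrgpra3, Mrgprx1, Mrgpra1, Mrgprb4 and Mrgprb5), the lysophosphatidic acid receptors Lpar3 and Lpar5, and the angiotensin II receptor Agtr1a. They were found by gene symbol, and they had been selected with their values in the stress and control libraries already known. Their stress effect is therefore given as a description with no test, while comparisons of the sexes, which played no part in the choice, are tested. All 9 passed the filter on low values. RNA came from the lumbar L3 to L5 ganglia of wild-type (WT) pups at postnatal day 9, and the strain is not given in the sources used here. Dams and pups had been kept on limited bedding, a protocol that causes chronic stress early in life (stress), or on control bedding (control), from postnatal day 2 to postnatal day 9. Each treatment had 3 libraries from females and 3 from males, 12 in all. Litters and the number of animals in a library are not stated in the labels, so each p-value reflects only how these libraries spread.

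Mas-related receptors are a family of G protein-coupled receptors that expanded in rodents into a cluster of related genes, and several of them mark separate classes of unmyelinated sensory neurons. Mrgprd, a receptor for beta-alanine, marks the non-peptidergic nociceptors that end in the epidermis, and Lpar3, Lpar5 and Agtr1a are among the genes enriched with it in adult mouse ganglia. Mrgpra3, the chloroquine receptor, and Mrgprx1, also called Mrgprc11, which responds to the peptide BAM8-22, mark a class of itch neurons. The transcription factor Runx1 directs the separation of these classes, which goes on after birth.

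Each library's normalized counts summed to between 21252840 and 22394910, and the depth estimated from the spacing of low values was 16500000 to 27000000 reads in 11 libraries. Stress female replicate 2 showed little such spacing, which leaves its depth unknown, and among the 6 stress libraries it was the lowest for Mrgpra3, Mrgprx1, Mrgpra1, Mrgprb4 and Mrgprb5. Without it, the log2 fold changes given further on were 0.68 for Mrgpra3, 0.80 for Mrgprx1, 1.71 for Mrgpra1 and 0.24 for Mrgprb4. Pearson correlations between libraries ran from 0.968 to 0.987 over all genes tested. The tissue label held against neuronal markers, with Tubb3 at a mean of 55469 normalized counts in control libraries and Prph at 53185. In whole ganglia, fewer cells of a type and less RNA per cell cannot be told apart.

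Within the Mas-related cluster, neighbouring genes had log2 fold changes of opposite sign after stress. Counts were taken per gene across 9 measured genes on chromosome 7 that spanned 964.4 kb of GRCm38, at chr7:47234861-48199288, all on the minus strand. Their order by coordinate was Mrgpra9, Mrgpra1, Mrgpra2a, Mrgpra2b, Mrgpra3, Mrgpra4, Mrgprx1, Mrgprb5 and Mrgprb4. Mrgpra1 lies at chr7:47334875-47354240 and Mrgpra3 at chr7:47588950-47601372, each with its coding sequence on 2 exons. Mrgprx1 lies at chr7:48020971-48027597, Mrgprb5 at chr7:48167983-48169019 and Mrgprb4 at chr7:48198070-48199288, each with its coding sequence on 1 exon. Mrgprd lies outside the cluster, at chr7:145314835-145324086 on the plus strand. The coding sequences of Mrgprb4 and Mrgprb5, whose models are 29050 bases apart, were 84.3% identical, and those of Mrgpra3 and Mrgpra1 were 83.4% identical. Of the 31-base words of each member's transcript, the share found in another gene's transcripts was 22.2% for Mrgprx1, 21.4% for Mrgpra3, 14.3% for Mrgpra1, 10.6% for Mrgprb4 and 7.45% for Mrgprb5. It was 0% for Mrgprd, so reads of Mrgprd could not be split between copies in this way, while those of the clustered genes could.

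The windows around the starts of Mrgprb4 and Mrgprb5 are shown because these adjacent genes had similar sequences and dissimilar values. Each is 300 bases of the minus strand from RefSeq, build GRCm38.p6, at chr7:48199129-48199428 for Mrgprb4 and chr7:48168936-48169235 for Mrgprb5. The RefSeq models begin at the start codon, at position 251, so the last 50 bases are coding. The gene models whose coordinates are given above begin earlier, at 48199288 for Mrgprb4 and 48169019 for Mrgprb5. In those models part of each stretch before position 251 is transcribed. Capitals mark the 54 positions at which the windows differ, with no gap between them.
Mrgprb4: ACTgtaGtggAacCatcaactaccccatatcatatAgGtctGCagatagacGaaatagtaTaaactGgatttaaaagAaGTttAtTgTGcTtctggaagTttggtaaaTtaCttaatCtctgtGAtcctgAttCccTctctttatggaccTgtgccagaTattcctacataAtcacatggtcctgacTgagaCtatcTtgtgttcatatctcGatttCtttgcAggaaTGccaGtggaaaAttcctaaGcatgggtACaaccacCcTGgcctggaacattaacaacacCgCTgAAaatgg
Mrgprb5: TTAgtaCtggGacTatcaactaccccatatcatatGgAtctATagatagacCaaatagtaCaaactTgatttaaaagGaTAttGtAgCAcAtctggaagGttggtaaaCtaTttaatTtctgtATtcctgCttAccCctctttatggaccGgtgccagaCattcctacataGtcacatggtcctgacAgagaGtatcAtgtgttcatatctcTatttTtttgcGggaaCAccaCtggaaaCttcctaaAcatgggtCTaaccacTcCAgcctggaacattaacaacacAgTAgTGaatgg
The windows were 82% identical, close to the identity of the coding sequences.

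The 250 bases before the starts of Mrgpra1 and of its neighbour Mrgpra2a are shown because these genes also stood on opposite sides of their control level. They are RefSeq sequence of the minus strand, build GRCm38.p6, at chr7:47354241-47354490 for Mrgpra1 and chr7:47452165-47452414 for Mrgpra2a. Capitals mark the RUNX core motif, searched as TGTGGT and TGCGGT on both strands, and Mrgpra2a has no match.
Mrgpra1: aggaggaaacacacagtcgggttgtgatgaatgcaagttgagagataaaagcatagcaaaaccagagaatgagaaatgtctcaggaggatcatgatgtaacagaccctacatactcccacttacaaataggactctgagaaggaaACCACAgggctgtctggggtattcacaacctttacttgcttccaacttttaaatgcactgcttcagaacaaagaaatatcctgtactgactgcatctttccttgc
Mrgpra2a: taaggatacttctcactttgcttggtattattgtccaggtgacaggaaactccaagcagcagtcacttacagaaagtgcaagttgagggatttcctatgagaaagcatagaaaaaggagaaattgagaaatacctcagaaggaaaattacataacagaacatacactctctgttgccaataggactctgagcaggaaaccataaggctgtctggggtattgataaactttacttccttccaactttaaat
The 1 match in Mrgpra1 began 105 bases before the start. Aligned end to end, the 300-base windows of this pair had 196 matches over 355 columns (55.2%). Columns with a gap count as differences there, and the pair shares stretches at shifted positions. This value therefore cannot be set beside that of the Mrgprb4 and Mrgprb5 windows, which aligned without a gap. Promoter windows were found for 7 of the 9 members, and not for Mrgpra3 and Agtr1a. A RUNX core was in 3 of the 8 windows of these genes, 1 of Mrgpra1 and both of Lpar5, beside 22.4% of all 32851 windows in the table. Counted by gene, 2 of the 7 had a match, and Mrgprx1, which also stood higher after stress, had 0. A match is a stretch of letters and does not show that a factor binds there.

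Mrgprd, the defining receptor of the non-peptidergic class, had overlapping values in the treatments. It was at 3472 to 4246 normalized counts in control libraries, with a median of 3751, and at 3346 to 4469 in stress libraries, with a median of 3695. The ranges overlapped almost completely. The mean was 3795 ± 270 in control and 3741 ± 404 in stress libraries (SD, n = 6 each), and the log2 fold change was -0.02 ± 0.05 (SE).

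The chloroquine receptor Mrgpra3 was higher in every stress library than in every control library. It ran from 279 to 366 normalized counts in control libraries, with a median of 329, and from 370 to 608 in stress libraries, with a median of 538. The log2 fold change was 0.62 ± 0.08 (SE), with 0.45 ± 0.11 in females and 0.80 ± 0.11 in males. Stress males, at 573 to 608, lay above stress females, at 370 to 503.

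Mrgprx1, the BAM8-22 receptor, had the same pattern at a higher level. It ran from 1201 to 1532 normalized counts in control libraries, with a median of 1295, and from 1675 to 2601 in stress libraries, with a median of 2286. The groups did not overlap, and the log2 fold change was 0.74 ± 0.08 (SE). The ratio of Mrgprx1 to Mrgpra3 in normalized counts was 4.06 ± 0.301 in control and 4.40 ± 0.462 in stress libraries (SD, n = 6 each), with overlapping ranges.

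Mrgpra1, which responds to RF-amide peptides and to bilirubin, had the largest positive log2 fold change of the 9 genes. It was at 11.5 to 34.4 normalized counts in control libraries, with a median of 24.98, and at 40.6 to 86.1 in stress libraries, with a median of 73.8. The lowest stress library, stress female replicate 2, was still above the highest control library. The log2 fold change was 1.53 ± 0.26 (SE), with 1.53 ± 0.37 in females and 1.54 ± 0.37 in males.

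Mrgprb4, which marks fibres of hairy skin that respond to stroking, overlapped between treatments. It ran from 60.3 to 119 normalized counts in control libraries, with a median of 88.7, and from 51.4 to 128 in stress libraries, with a median of 111. The log2 fold change was 0.10 ± 0.19 (SE). Relative to Mrgpra3, the ratio was 0.272 ± 0.0349 in control and 0.191 ± 0.0426 in stress libraries (SD, n = 6 each), with ranges of 0.216 to 0.325 and 0.139 to 0.251 that overlapped. Mrgpra3 had a log2 fold change of 0.62, so the lower ratio mostly repeats the difference in Mrgpra3 and adds no evidence.

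Mrgprb5, the neighbour of Mrgprb4, was low throughout and lower after stress. It ran from 10.8 to 26.9 normalized counts in control libraries, with a median of 23.7, and from 0.675 to 13.2 in stress libraries, with a median of 3.46. Control male replicate 1, at 10.8, lay under the highest stress library, stress female replicate 1, at 13.2, so the groups overlapped narrowly. The log2 fold change was -2.07 ± 0.47 (SE), and -1.60 ± 0.35 without stress female replicate 2, which held the 0.675. At these levels a value of a few reads carries a wide counting error.

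**Figure D1:**
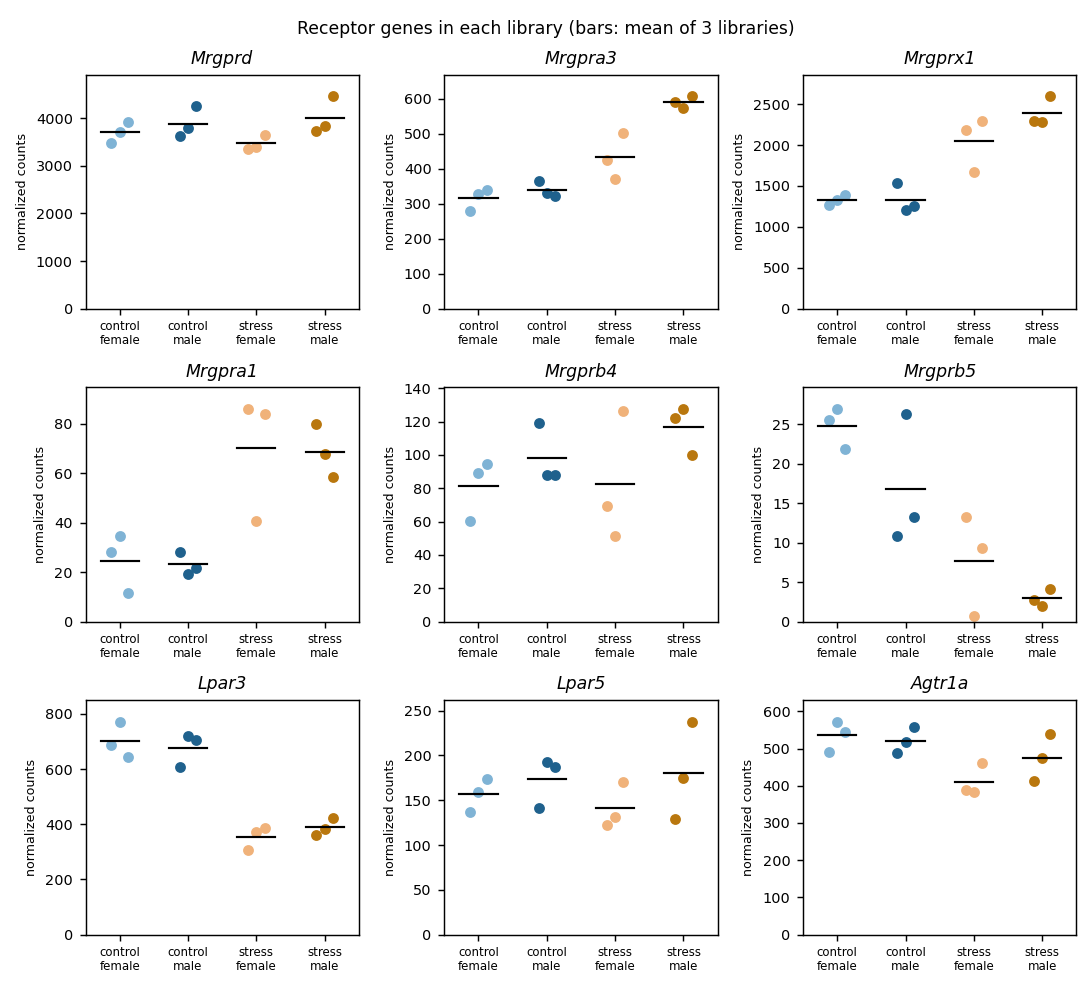
Normalized counts of the 9 receptor genes in each library (y axis, from 0), with 1 point for each library and a bar for the mean of the 3 libraries of a treatment and sex (x axis). Stress libraries lay above all control libraries for Mrgpra3, Mrgprx1 and Mrgpra1 and under all of them for Lpar3, and the treatments overlapped for the other 5 genes.

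Lpar3, a receptor for lysophosphatidic acid, was lower in every stress library. It lies at chr3:146220963-146286186 on the plus strand, with its coding sequence on 2 exons. It was at 606 to 772 normalized counts in control libraries, with a median of 696, and at 306 to 421 in stress libraries, with a median of 378. The gap between the groups was wider than the range within either. The log2 fold change was -0.89 ± 0.08 (SE), with -0.98 ± 0.11 in females and -0.80 ± 0.11 in males. Relative to Mrgprd the ratio was 0.182 ± 0.0189 in control and 0.0995 ± 0.00687 in stress libraries (SD, n = 6 each). Mrgprd had a log2 fold change of -0.02, so this ratio repeats the difference in Lpar3 and adds no evidence.

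Lpar5, a further lysophosphatidic acid receptor, did not follow Lpar3. It lies at chr6:125067920-125082472 on the plus strand, with 1 coding exon. It ran from 137 to 193 normalized counts in control libraries, with a median of 167, and from 123 to 238 in stress libraries, with a median of 151. The stress range enclosed the control range, and the log2 fold change was -0.06 ± 0.14 (SE).

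Agtr1a, a type 1 receptor of the blood pressure peptide angiotensin II, was lower by a small amount. It lies at chr13:30336441-30382867 on the plus strand, with 1 coding exon, and 4.29% of its 31-base words also occurred in other transcripts, among them Agtr1b. It ran from 487 to 573 normalized counts in control libraries, with a median of 530, and from 384 to 540 in stress libraries, with a median of 437. Stress females, at 384 to 461, and stress male replicates 1 and 2, at 412 and 474, lay under all controls. Only stress male replicate 3, at 540, lay within the control range. The log2 fold change was -0.26 ± 0.08 (SE), with -0.38 ± 0.11 in females and -0.14 ± 0.11 in males. Divided by Mrgprd of the same library, the ranges separated, at 0.131 to 0.155 in control and 0.110 to 0.126 in stress libraries. This ratio of chosen genes is a description with no test.

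Over all 15194 genes tested, 26.2% passed an adjusted p of 0.05 in limma's test of stress against control, 12.8% higher and 13.4% lower in stress, and the median log2 fold change was 0.01. The receptor genes were chosen on this contrast and their calls are not counted. The gene lists described further on were also drawn up with earlier results of these data known, so their counts describe the lists beside these shares and are no independent evidence. With the mean log2 level of red blood cell markers as a covariate, 5.79% of all genes were higher and 5.82% lower. The limits of this covariate are given further on. In the authors' deposited table, the log2 fold change was 1.54 for Mrgpra1, 0.74 for Mrgprx1, 0.63 for Mrgpra3, -0.89 for Lpar3 and -2.08 for Mrgprb5.

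Levels of different genes were compared per length, as normalized counts per kilobase of the annotated transcript. In control libraries Mrgprd led, at 1207 ± 85.9 (SD, n = 6), followed by Mrgprx1 at 1125 ± 101 (SD, n = 6), and their ranges overlapped. Lpar3, at 280 ± 23.7, Mrgpra3, at 253 ± 21.8, and Agtr1a, at 240 ± 16.1, came next, and the ranges of neighbours overlapped. Lpar5 was at 113 ± 15.9, Mrgprb4 at 73.8 ± 15.4, Mrgpra1 at 22.0 ± 7.43 and Mrgprb5 at 20.0 ± 6.79, and the ranges of Lpar5 and Mrgprb4, and of Mrgpra1 and Mrgprb5, overlapped. In stress libraries the order changed. Mrgprx1 led at 1883 ± 257 (SD, n = 6), above Mrgprd at 1190 ± 128 (SD, n = 6), with only the edges of their ranges meeting, at 1420 and 1421. Mrgpra3, at 395 ± 75.2, stood above Agtr1a, at 202 ± 27.3, without overlap. Lpar3 followed at 151 ± 15.4, and Mrgprb5 was the lowest of the 9 at 5.15 ± 4.70.

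**Figure D2:**
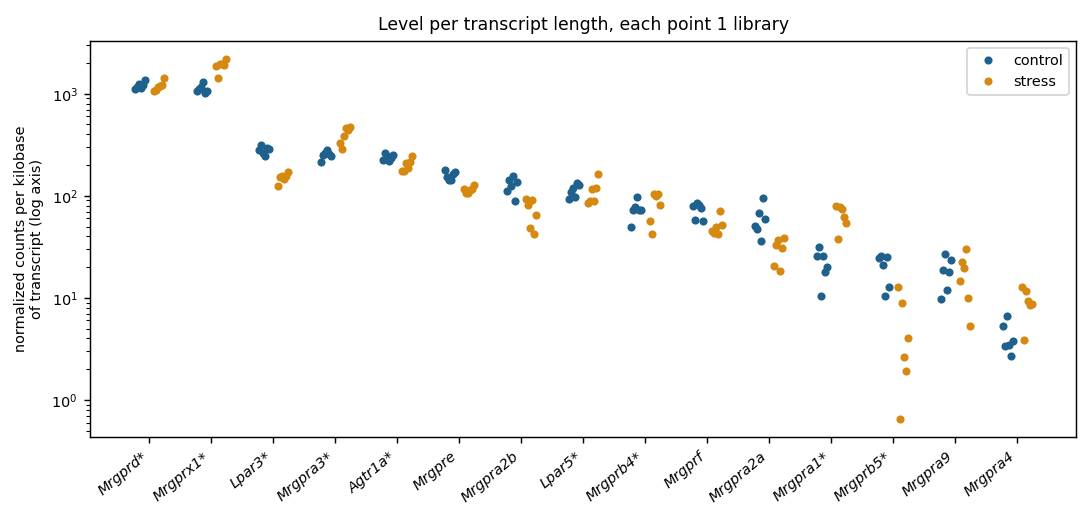
Normalized counts per kilobase of transcript (y axis, log scale) for the measured Mas-related genes other than Mas1 and for Lpar3, Lpar5 and Agtr1a (x axis, asterisks mark the 9 genes described), with 1 point for each of 6 control and 6 stress libraries. Mrgprd and Mrgprx1 shared the top in control libraries, and Mrgprb5 had the lowest single value, in a stress library.

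Of the rest of the Mas-related family, 7 of 15 listed genes were tested, and 4 of them were lower in stress while 0 were higher, with a median log2 fold change of -0.47. With the red blood cell covariate 2 were lower, the calls of Mrgpra2a and Mrgprf being lost. Mrgpre, an orphan receptor outside the cluster, was at 535 to 672 normalized counts in control and 397 to 478 in stress libraries. These did not overlap, and Mrgpre fell by 0.47 ± 0.07 (SE) on the log2 scale (limma, adjusted p = 0.00012). Mrgprf, a neighbour of Mrgprd, fell from a mean of 152 to 105 normalized counts, a log2 fold change of -0.53 ± 0.14 (limma, adjusted p = 0.0116). Mrgpra2a and Mrgpra2b, which lie between Mrgpra1 and Mrgpra3, fell by 0.96 ± 0.24 and 0.89 ± 0.20 on the log2 scale (limma, adjusted p = 0.00835 and 0.00327). Their coding sequences were 99.8% identical, so reads could be split between them and each value is uncertain alone. Their sum was 234 ± 15.6 normalized counts in control and 126 ± 21.1 in stress libraries (SD, n = 6 each), with no overlap between 204 to 246 and 91.9 to 143. Mrgpra4, which shares 31-base words with Mrgpra3, was at a mean of 5.31 in control and 11.4 in stress libraries, with a log2 fold change of 0.95 ± 0.38 (limma, adjusted p = 0.0768). Mrgpra9 was at 19.8 and 18.4 (limma, adjusted p = 0.741) and Mas1 at 9.60 and 9.17 (limma, adjusted p = 0.651). Along the chromosome, genes that stood lower (Mrgpra2a and Mrgpra2b) thus lay between genes that stood higher (Mrgpra1 and Mrgpra3).

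**Figure D3:**
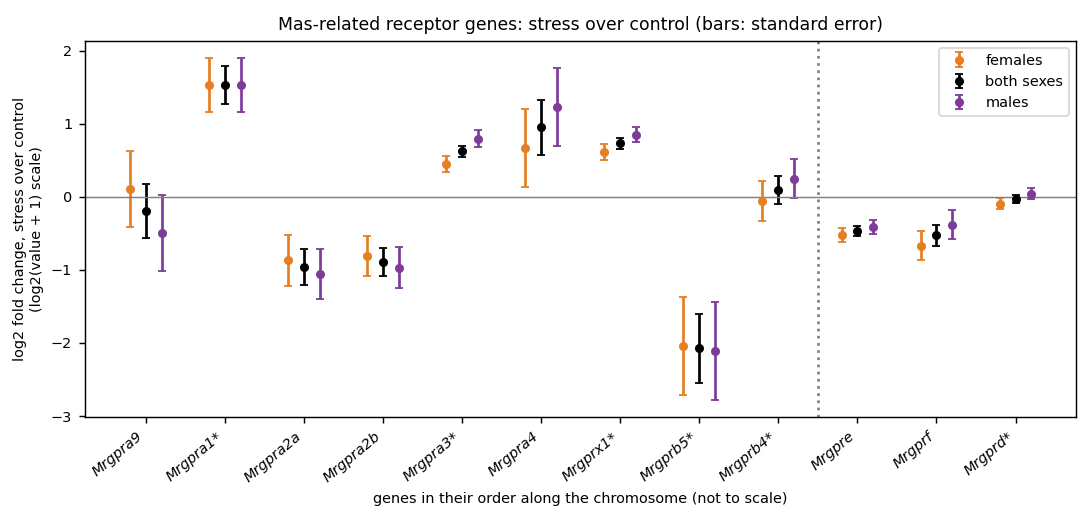
Log2 fold change of stress over control with its standard error (y axis) for the measured Mas-related genes of chromosome 7 in their order along it (x axis, not to scale), for females, both sexes and males, with asterisks on the genes described here and a dotted line at the end of the cluster. Mrgpra1, Mrgpra3 and Mrgprx1 lie above 0, and Mrgpra2a, Mrgpra2b and Mrgprb5 between and beside them lie under 0.

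The rest of the lysophosphatidic acid pathway mostly did not pass the test. Of 10 genes tested, 1 was higher and 1 lower, near the shares over all genes, and the median log2 fold change was -0.0026. Lpar2 rose from a mean of 20.8 to 37.7 normalized counts, a log2 fold change of 0.81 ± 0.21 (limma, adjusted p = 0.0107), a call lost with the red blood cell covariate. Gpr35, proposed as a receptor for lysophosphatidic acid, fell from 626 ± 34.2 to 404 ± 26.7 (SD, n = 6), a log2 fold change of -0.63 ± 0.06 (limma, adjusted p = 2.44e-06), with no overlap. Lpar1, with a mean of 2593 normalized counts in control libraries, had a log2 fold change of -0.07 ± 0.05 (limma, adjusted p = 0.275). Lpar4 and Lpar6 also missed the threshold, at 0.18 ± 0.08 and -0.28 ± 0.15 on the log2 scale. Enpp2, the enzyme that makes lysophosphatidic acid outside cells, was at 388 normalized counts in control and 418 in stress libraries (limma, adjusted p = 0.418).

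Of 11 genes of the renin-angiotensin pathway tested, 4 were higher and 2 lower, against 3 and 1 with the red blood cell covariate, and the median log2 fold change was 0.08. Agt, the precursor of angiotensin, rose from 151 ± 15 to 277 ± 56.1 normalized counts (SD, n = 6), a log2 fold change of 0.86 ± 0.12 (limma, adjusted p = 5.75e-05). Ace, the converting enzyme that makes angiotensin II, rose by 0.45 ± 0.08 on the log2 scale (limma, adjusted p = 0.000929). Agtr2, the type 2 receptor, ran from 24.5 to 56.1 normalized counts in control and from 60.0 to 162 in stress libraries, a log2 fold change of 1.13 ± 0.23 (limma, adjusted p = 0.00175). Agtr1b, the paralog of Agtr1a, rose by 0.30 ± 0.09 (limma, adjusted p = 0.0250), a call lost when any of 6 libraries was left out. Agtrap, a protein that binds the type 1 receptor and promotes its internalization, fell by 0.37 ± 0.06 on the log2 scale (limma, adjusted p = 0.0002). Atp6ap2, the prorenin receptor, fell by 0.15 ± 0.05 (limma, adjusted p = 0.0311), a call lost in 11 of 23 alternatives.

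Most other markers of the Mrgprd class were lower, beside a log2 fold change of -0.02 ± 0.05 for Mrgprd itself. Of 12 markers tested, 9 were lower and 0 higher, with a median log2 fold change of -0.34, and 5 were lower and 1 higher with the red blood cell covariate. Prkcq, protein kinase C theta, fell from 1664 ± 104 to 807 ± 74.5 normalized counts (SD, n = 6), a log2 fold change of -1.05 ± 0.05 (limma, adjusted p = 5.75e-09). Cd55, a complement regulator, fell by 0.88 ± 0.07 (limma, adjusted p = 2.5e-07) and Tmem45b, a membrane protein, by 0.37 ± 0.05. Gfra2, the neurturin receptor, fell by 0.35 ± 0.06 and Ret, its signalling partner, by 0.18 ± 0.05 (limma, adjusted p = 0.000515 and 0.00858), and both calls were lost with that covariate. Runx1 was at 1316 ± 79.6 normalized counts in control and 1205 ± 206 in stress libraries (SD, n = 6), and its difference missed the threshold (limma, adjusted p = 0.271). Of 17 lineage regulators, 3 were higher and 3 lower (17.6% each way, near the 12.8% and 13.4% of all genes), and 2 and 0 with the covariate, among them Gfra3, the artemin receptor, at 0.47 ± 0.05.

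Of 8 other markers of the Mrgpra3 class, 4 were lower (50%, beside 13.4% of all genes) and 0 higher (beside 12.8%). Their median log2 fold change was -0.29, while Mrgpra3 and Mrgprx1 themselves stood higher. With the red blood cell covariate 4 were lower and 1 higher. Several of these markers, such as the peptide Calca, at -0.48 ± 0.04, and the heat channel Trpv1, at -0.32 ± 0.05, are also expressed by peptidergic nociceptors. Gfra1, Hrh1, P2rx3 and Scn10a missed the threshold, at -0.07 ± 0.05, -0.30 ± 0.14, 0.14 ± 0.05 and 0.03 ± 0.06. Of 9 markers of the itch class that makes the peptides Nppb and Sst, 8 were lower, and 4 with the red blood cell covariate. Nppb fell from 105 ± 19.1 to 4.31 ± 1.82 normalized counts (SD, n = 6) and Sst from 60.6 ± 19.5 to 3.30 ± 2.96 (SD, n = 6), with adjusted p of 2.72e-08 and 2.54e-06 in limma. Of 8 markers of C low-threshold mechanoreceptors, 1 was higher and 2 lower, and 1 and 0 with the covariate. Of 10 peptidergic markers, 2 were higher and 3 lower, and 1 and 3 with it.

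Downstream of the receptors, 31 genes of G protein signalling and its target channels were tested and 13 of them passed, 4 higher (12.9%, the share over all genes being 12.8%) and 9 lower (29.0%, beside 13.4%). With the red blood cell covariate 3 were higher and 5 lower. Their median log2 fold change was -0.04. Trpa1, the channel opened after Mrgpra3 and Mrgprx1 are activated, fell from 978 ± 70.7 to 347 ± 75.04 normalized counts (SD, n = 6), a log2 fold change of -1.52 ± 0.09 (limma, adjusted p = 1.6e-08). Plcb3, a phospholipase, fell by 0.27 ± 0.04 (limma, adjusted p = 0.000164), and Prkcd, protein kinase C delta, by 0.38 ± 0.04 (limma, adjusted p = 3.8e-06). The 4 higher genes were Plcb1, a phospholipase of the same family, at 0.31 ± 0.06 (limma, adjusted p = 0.00116), Gnai3 at 0.26 ± 0.05, Gna11 at 0.20 ± 0.04 and Gnai1 at 0.20 ± 0.04. Mrgpra3 and Mrgprx1 thus stood higher while downstream genes went both ways. A relation between the receptors and these genes was not tested.

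**Figure D4:**
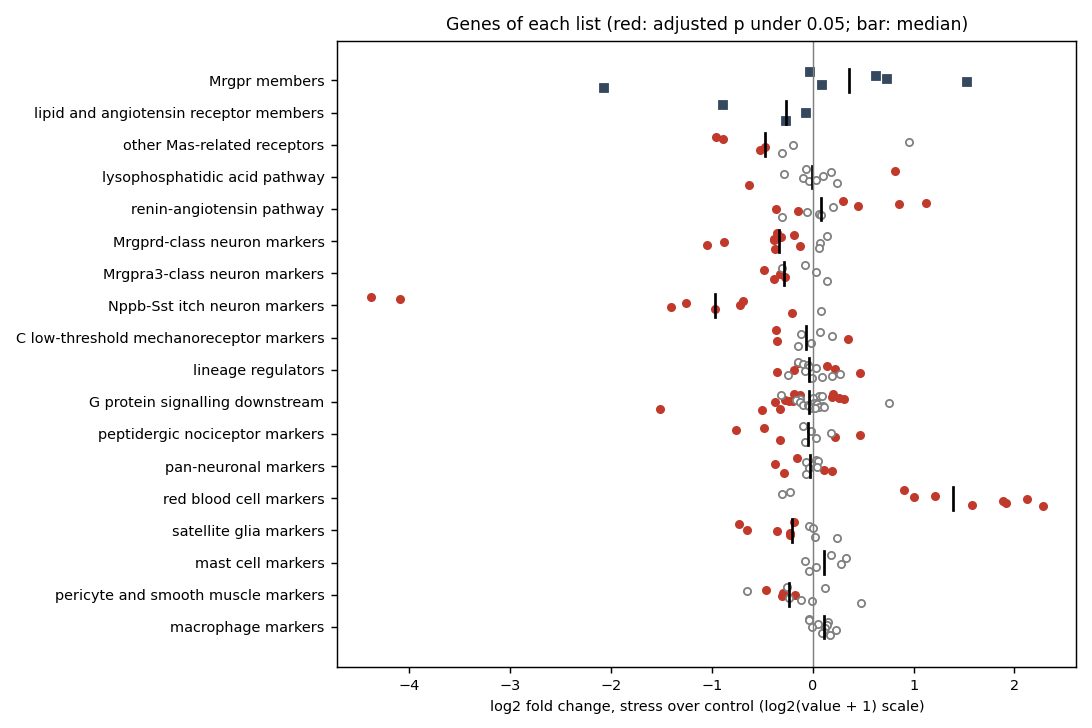
Log2 fold change of stress over control (x axis) for the genes of each list (y axis), with red points for genes past an adjusted p of 0.05, open points for the rest, squares for the 9 receptor genes, which carry no test, and a bar for the list's median. The markers of the Mrgprd class lie mostly under 0, with a median of -0.34, while red blood cell markers lie mostly above 0, with a median of 1.40.

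Markers of other cell types moved with treatment and are given beside these values. Of 10 red blood cell markers tested, 8 were higher in stress, and their sum ran from 2376 to 4806 normalized counts in control and from 4167 to 12780 in stress libraries. The covariate was the mean of log2(value + 1) over these markers, and Hbb-bs or Hba-a2 was at 0 in some libraries. It did not rank all libraries as Hba-a1 did. Control female replicate 1 scored 5.94 with Hba-a1 at 937, and stress male replicate 3 scored 5.73 with Hba-a1 at 5347. With this covariate, the log2 fold change of stress was 0.72 for Mrgpra3, 0.77 for Mrgprx1, 1.37 for Mrgpra1 and -0.72 for Lpar3. Under it the value was -2.13 ± 0.69 (SE) for Mrgprb5, -0.11 ± 0.09 for Agtr1a, 0.28 for Mrgprb4, 0.25 for Lpar5 and 0.09 for Mrgprd. Of 10 satellite glia markers 6 were lower, such as Apoe at -0.74 ± 0.05, and their sum ran from 75320 to 84460 in control and from 58590 to 69160 in stress libraries. Of 12 pan-neuronal markers 2 were higher, Scn9a at 0.19 ± 0.06 and Elavl4 at 0.11 ± 0.04, and 3 lower, such as Snap25 at -0.38 ± 0.06. The median log2 fold change of the 12 was -0.02. Their sum ran from 282800 to 294800 in control and from 264100 to 290700 in stress libraries. Of 11 pericyte and smooth muscle markers, a cell type that also expresses Agtr1a, 4 were lower, such as Rgs5 at -0.29 ± 0.04, and their sum ran from 8750 to 9763 in control and from 7597 to 8109 in stress libraries. Of 6 mast cell markers 0 passed the test in limma, with 0 at an unadjusted p under 0.05 and Cma1 the lowest (adjusted p = 0.475). Of 11 macrophage markers 0 passed in limma, with 1 at an unadjusted p under 0.05, C1qb (adjusted p = 0.0607), and their sum ran from 2084 to 2652 in control and from 2238 to 2821 in stress libraries. The part of these cells in the receptor values was not tested beyond that covariate.

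The sexes were compared over both treatments, a contrast that did not enter the choice of genes. Of the 9 receptor genes, 0 passed the test (limma, adjusted p of 0.355 to 0.984), beside 0.0987% of all genes tested, and 3 of the 9 had an unadjusted p under 0.05, as did 1437 of all genes (9.46%). The lowest adjusted p was that of Mrgpra3, at a mean of 374 ± 79.4 (SD, n = 6) normalized counts in females and 465 ± 139 (SD, n = 6) in males, a log2 difference of 0.29 ± 0.08 (SE, limma, adjusted p = 0.355). Mrgprb4 had a log2 difference of 0.43 ± 0.19 (limma, adjusted p = 0.507) and Mrgprd of 0.14 ± 0.05 (limma, adjusted p = 0.467), both higher in males. The stress effect itself was compared between males and females, and 0 of the 9 genes passed (limma, adjusted p of 0.587 to 0.997), beside 0% of all genes tested, with 1 of the 9 and 1260 of all genes at an unadjusted p under 0.05. The largest difference relative to its error was for Mrgpra3, where the effect in males exceeded that in females by 0.35 ± 0.16 (SE) on the log2 scale (limma, adjusted p = 0.587). For Lpar3 the difference was 0.18 ± 0.15 and for Mrgpra1 0.01 ± 0.52. A miss does not show that the sexes responded alike, and the errors were wide for the low genes Mrgpra1 and Mrgprb5.

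Variation shared by the receptors within groups was described by correlation. After the mean of each treatment and sex was removed, all 36 pairs were correlated over the 12 libraries, with an exact permutation test that relabelled libraries within groups. Mrgprd and Agtr1a had a Pearson r of 0.86 (exact permutation p = 0.0054, adjusted p = 0.0555) and a Spearman rho of 0.881 (exact permutation p = 0.00386, adjusted p = 0.0695), and r was 0.798 without the pair of libraries farthest from the median of Mrgprd. Lpar5 and Agtr1a had a Pearson r of 0.919 (exact permutation p = 0.00617, adjusted p = 0.0555) and a Spearman rho of 0.874 (exact permutation p = 0.00926, adjusted p = 0.0833), and r was 0.843 without the 2 farthest libraries. Mrgpra3 and Mrgprx1, receptors of the same itch class, had a Pearson r of 0.825 (exact permutation p = 0.00386, adjusted p = 0.0555) and a Spearman rho of 0.867 (exact permutation p = 0.00231, adjusted p = 0.0695), and r was 0.676 without the 2 farthest. No pair passed 0.05 after adjustment over the 36. Between these sets the values were lower, such as a Pearson r of 0.307 for Mrgprd and Mrgpra3. The values of a library share its depth and composition. Among 12948 other genes with a mean of at least 50 normalized counts, the highest r was with Ntrk2 for Mrgprd (0.98), Wnk2 for Mrgpra3 (0.952), Cadm2 for Mrgprx1 (0.972), Jam2 for Lpar3 (0.919), Olfml2a for Lpar5 (0.957) and Gna14 for Agtr1a (0.944), which are the highest of many values. Mrgprb4 was the third of these for Mrgpra3, at 0.917.

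**Figure D5:**
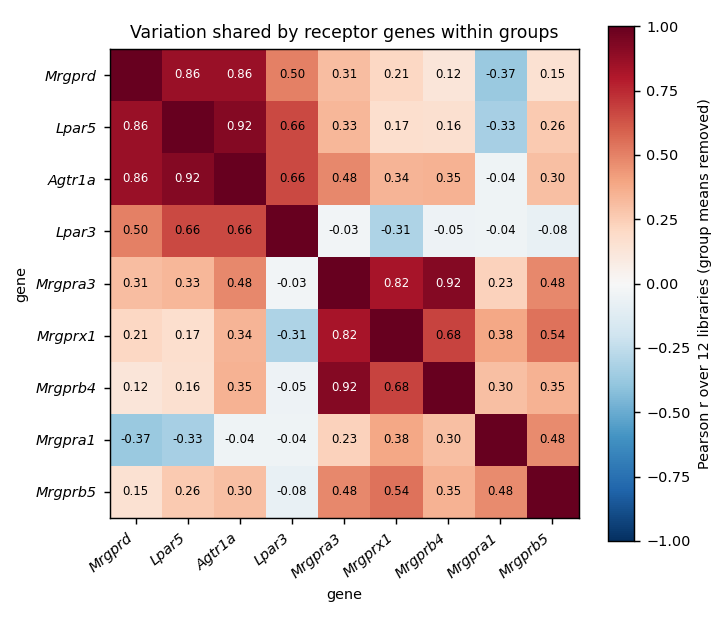
Pearson r between the 9 receptor genes (both axes) over 12 libraries after the mean of each treatment and sex was removed, with the color scale from -1 to 1. Mrgprd, Lpar5 and Agtr1a form a block with r of 0.86 or more, and Mrgpra3, Mrgprx1 and Mrgprb4 another with r of 0.678 to 0.917.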

How the data were processed

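Total RNA of 12 libraries was analysed from the table the authors deposited. A directional kit was used, per the labels' protocols. The submitters' processing notes name mm10, STAR, Salmon and DESeq2 with no version or role, and give no annotation or filter that could be read here. That deposited table held a normalized signal per gene and library (called normalized counts here), not whole reads. It also held the authors' log2 fold changes, test scores and p-values, of which only fold changes are quoted. Of its low values, 61.1% to 86.1% lay near multiples of 1 step in 11 libraries and 27.6% in stress female replicate 2, short of the 95% at which whole reads could be recovered, and count models were not used.

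Groups were taken from the labels. A value of 10 or more in at least 3 libraries was required, met by 15194 genes and missed by 128. The test was limma 3.58.1 (R 4.3.3) on log2(value + 1), with 4 group means, a prior variance that followed expression and Benjamini-Hochberg adjustment over all genes tested, at 0.05. Fold changes on this scale understate those of low genes. The steps were tested on simulated data. Alternatives were pseudocounts, filters, scaling by upper quartile or TMM, variance priors, weights, a red blood cell score, replicate blocks and leaving out each library.

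The 9 genes and the gene lists were chosen with earlier results of these data known. From each list up to 4 called genes of lowest p were named, with all measured genes of the Mas-related, lysophosphatidic acid and renin-angiotensin lists and 8 genes named always. The genes called higher in the G protein signalling and pan-neuronal lists were named as well. So were the markers of the Mrgpra3 class that missed the threshold. A few genes under this rule are not reported here. Gene models are from GENCODE M21 on GRCm38. Promoter windows, matched by symbol, are from RefSeq on GRCm38.p6.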

Additional observations from a re-analysis of the deposited data

How the results depend on the processing

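The log2 fold changes of the 9 receptor genes kept their direction under all alternatives that tested them for Mrgpra3, Mrgprx1, Mrgpra1, Mrgprb5, Lpar3 and Agtr1a. With each library left out in turn they ran from 0.57 to 0.68 for Mrgpra3, 0.69 to 0.80 for Mrgprx1, 1.30 to 1.71 for Mrgpra1, -2.37 to -1.60 for Mrgprb5, -0.93 to -0.84 for Lpar3 and -0.31 to -0.21 for Agtr1a. They crossed 0 for Mrgprd, Mrgprb4 and Lpar5, whose values were within their errors of 0. With the red blood cell score as a covariate, stress calls over all genes fell from 3984 to 1764, and the values moved to 0.089 for Mrgprd, -0.72 for Lpar3, 0.25 for Lpar5 and -0.11 for Agtr1a. The score differs between the treatments and did not rank all libraries as Hba-a1 did. It takes up part of the contrast, and the cause was not tested. For Mrgprb5 the value with the score was -2.13, with a wider error. Under it the calls of Mrgpra2a, Mrgprf, Lpar2, Gfra2 and Ret were lost. Genes lower in stress went from 9 to 5 for the Mrgprd class, from 8 to 4 for the Nppb and Sst class and from 9 to 5 for G protein signalling. Leaving out 1 library gave 3155 to 3959 stress calls, 11 to 30 male against female calls, with 30 without stress female replicate 2 and 27 without stress male replicate 1, and 0 to 1 calls for the difference between the sexes. In control libraries alone 9 genes differed between the sexes, against 15. Upper quartile scaling moved the share of higher calls from 48.9% to 53.4%. Replicate numbers showed no clear pairing of libraries. Same-numbered libraries correlated at -0.0151 to 0.148 within a sex, and 6 of 12 libraries were closest to their own number. With so few libraries in a group, this check cannot exclude pairing or shared litters. With a replicate block within sex the stress calls were 4133 and the calls for the difference between the sexes 2, and with a block across the sexes 4176 and 1. The block within sex gives no male against female value. No receptor gene passed in either sex comparison under any alternative, with lowest adjusted p of 0.163 (Mrgpra3, male against female) and 0.380 (Agtr1a, difference between the sexes). Low counts limit Mrgprb5, Mrgpra1 and Mrgpra4.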
